A study of Mus musculus with 6 samples.

Results

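A set of 10 genes of fat cells and lipid droplets was followed in mouse soleus, a slow hindlimb muscle, after loss of its nerve supply. They were chosen by symbol, as Plin1, Plin2, Plin4, Plin5, Adipoq, Cfd, Fabp4, Pparg, Cidec and Lep, and are 10 of the 21572 gene symbols listed. Earlier results of these data were known when they were chosen. Polyadenylated RNA was sequenced from 6 libraries of adult C57BL/6 mice in 3 groups of 2. The first group was soleus of mice labelled Dach2-/-/Hdac9-/- (DKO-labelled), denervated for 3 days (Dach2 encodes a nuclear co-repressor, Hdac9 a deacetylase of histones and other proteins). The second was wild-type (WT) soleus denervated for 3 days, and the third was innervated WT soleus, so that all 3 groups share strain, age class and muscle and no innervated knockout muscle was analysed here. The labels do not say how many animals a library holds, whether the replicates were separate animals, or how the knockout was made, so p-values measure the spread between libraries, which may be technical.

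A lipid droplet is a store of triglyceride and sterol ester inside a cell, wrapped in a single layer of phospholipid and coated by proteins of the perilipin family. In fat cells the coat is mainly perilipin 1, the droplet grows by fusion through Cidec, and the nuclear receptor PPARG drives the genes of the differentiated cell, among them the secreted proteins adiponectin, leptin and adipsin. Muscle fibres hold small droplets that feed mitochondria, coated chiefly by perilipins 2, 4 and 5, and a whole muscle also contains fat cells between and around its fibres. In bulk tissue, fewer cells of a type and less RNA per cell cannot be told apart.

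The libraries held between 25529434 and 46305449 estimated fragments. Levels are the authors' FPKM (fragments scaled to transcript length and library). A change is a log2 ratio of group means ± SE, fitted by the quasi-likelihood method of edgeR to the fragment counts of all 6 libraries, and it was called where p, adjusted over the 12247 tested genes by Benjamini-Hochberg, was under 0.05. Denervated WT replicate 2 stood apart from the other libraries on the second principal component (13% of the variance), at 43.3 against -27.9 to 8.8. Dach2 was at 0.961 and 0.681 FPKM in DKO-labelled libraries, 0.519 and 0.536 in denervated WT and 3.85 and 4.29 in innervated WT, so it was not lower than in denervated WT muscle. For Hdac9 the values were 0.534 and 0.181 FPKM in DKO-labelled, 1.83 and 0.285 in denervated WT and 4.1 and 3.14 in innervated WT libraries. These whole-gene values also count exons outside a deleted part and do not check the deletion. Of 8 muscle fibre markers, 7 were detected in every library, their summed level being 9695 to 10820 FPKM in DKO-labelled, 11460 to 12490 in denervated WT and 27470 to 32170 in innervated WT libraries, while Acta1 was listed at 0 in all 6. All 10 genes passed the filter of a mean of 0.5 FPKM; Lep passed only through its level in innervated muscle.

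Most of the fat cell genes were lower in WT soleus 3 days after denervation than in innervated WT soleus. Of the genes best known from fat cells, Plin1, Cidec, Fabp4, Adipoq, Lep and Cfd fell between 2.59-fold and 7.32-fold, and the muscle perilipin Plin4 fell 6.53-fold. Plin5, Plin2 and Pparg did not pass the test. Because the 10 genes were chosen with earlier results of these data known, the shares of all genes set beside them are a description. They are no test of enrichment. In all, 7 of the 10 were called lower and 0 higher, against 14.3% lower and 14.4% higher (28.7% in all) over all genes, and the libraries did not overlap, denervated WT below innervated WT, for 9 of the 10, against 35.5% of all genes (35.1% were apart in the other direction). Lep, which passed the filter only through innervated muscle, is among the 7 and the 9. With the minimum mean FPKM raised to 2, which left Lep untested, 6 of 9 were called lower, at a median of -2.06. At the filter of 0.5 FPKM the median log2 change of the 10 was -2.16, and that of all genes 0.00. These calls needed both innervated libraries: without innervated WT replicate 1 or replicate 2 none of the 7 passed (edgeR adjusted p = 0.0511 to 0.162 and 0.0552 to 0.169), at changes of -2.82 to -1.42 and -3.08 to -1.33, and the calls over all genes fell to 468 and 202, against 3512.

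**Figure D1:**
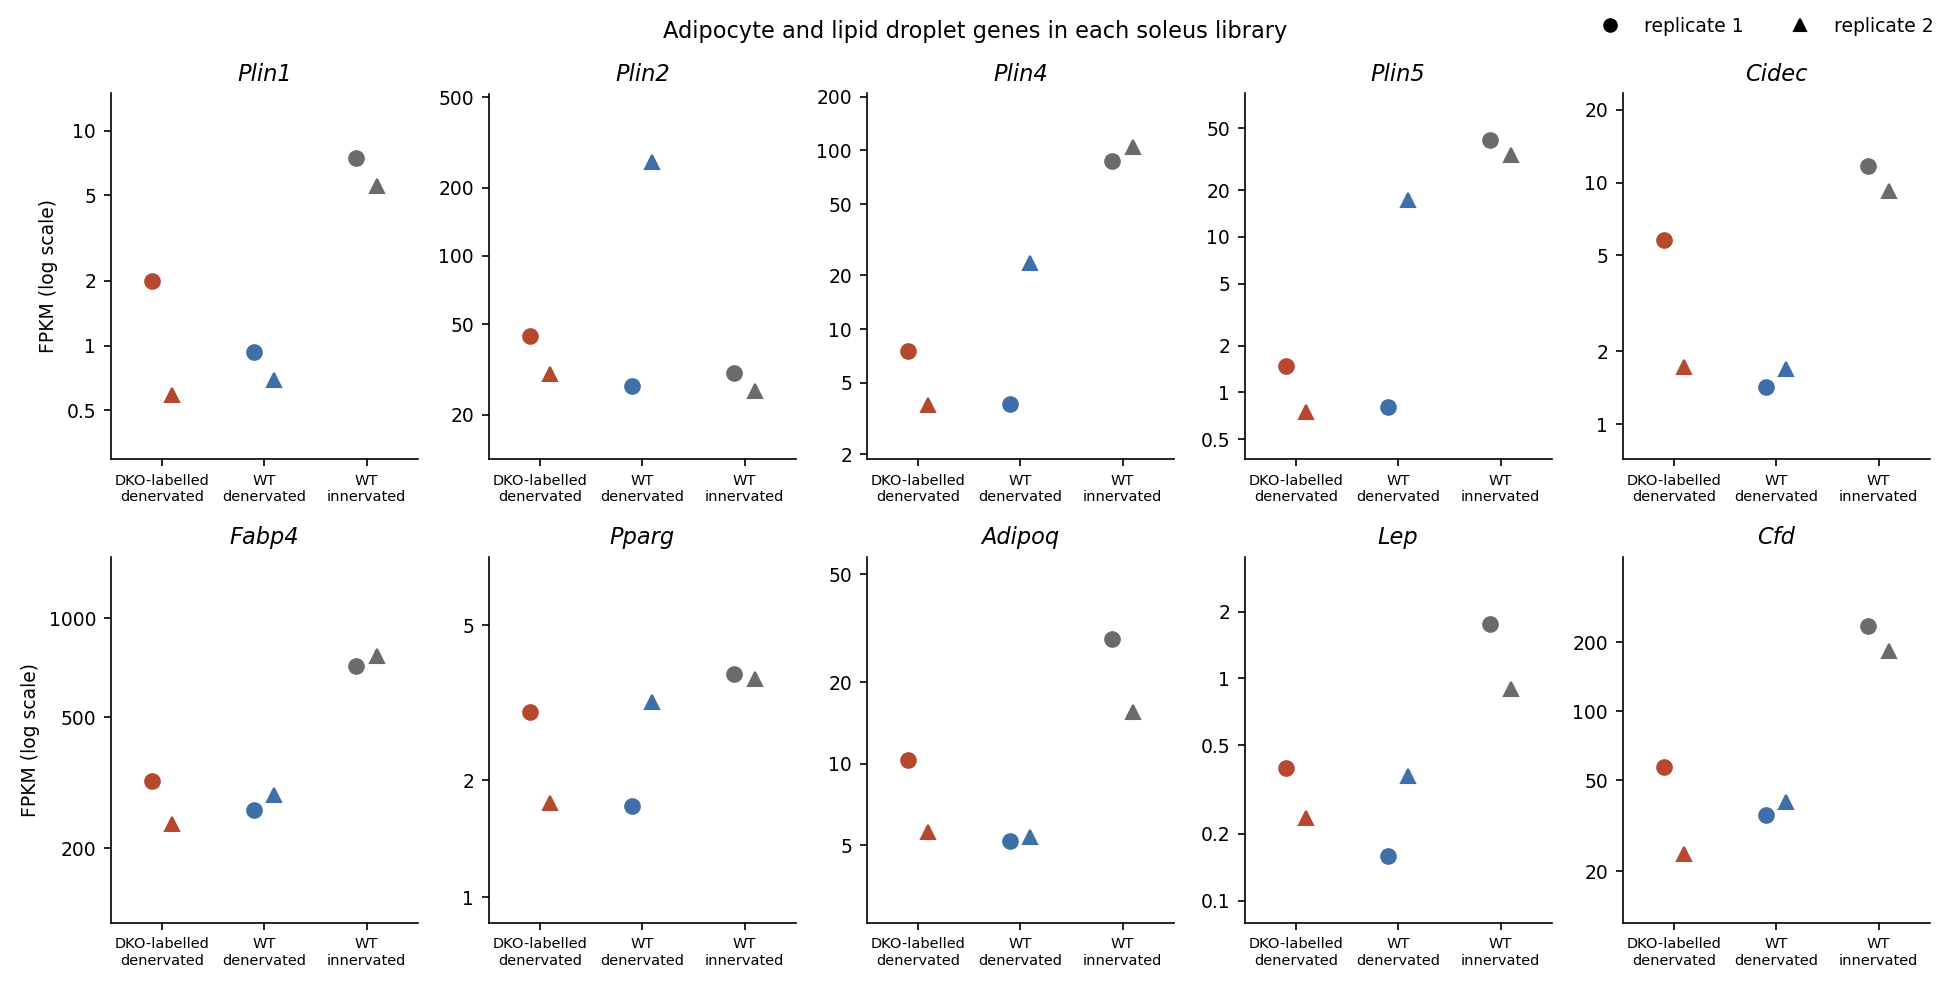
FPKM (log scale) of each of the 10 genes in the 6 libraries, by group, with circles for replicate 1 and triangles for replicate 2. Innervated WT libraries lie above all denervated libraries for every gene but Plin2, whose highest value, 260 FPKM, is denervated WT replicate 2.

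Among the droplet proteins of fat cells, Plin1 (7: 86866049 to 86877662, build mm9, whole locus, as for all coordinates of loci here), which coats the large droplet and gates lipolysis, was at 2.0 and 0.593 FPKM in DKO-labelled, 0.935 and 0.696 in denervated WT and 7.44 and 5.52 in innervated WT libraries. Both innervated libraries lay above all 4 denervated ones. The change in WT muscle was -2.87 ± 0.57 (edgeR adjusted p = 0.0153). Cidec (6: 113374629 to 113385749), whose protein joins droplets and passes lipid between them, was at 5.77 and 1.72 FPKM in DKO-labelled, 1.43 and 1.69 in denervated WT and 11.7 and 9.27 in innervated WT libraries. It changed by -2.64 ± 0.55 in WT muscle (edgeR adjusted p = 0.0174), and DKO-labelled replicate 1 lay between the other denervated libraries and innervated muscle.

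Adipoq, Cfd and Lep encode secreted proteins. Adipoq (16: 23146608 to 23158041), which encodes the hormone adiponectin, was at 10.3 and 5.62 FPKM in DKO-labelled, 5.18 and 5.37 in denervated WT and 29.0 and 15.6 in innervated WT libraries. The groups did not overlap, although the innervated libraries differed between themselves by more than those of either denervated group, and the WT change was -2.01 ± 0.40 (edgeR adjusted p = 0.0154). Cfd (10: 79353597 to 79355401), which encodes adipsin, the protease complement factor D, was at 57.3 and 23.8 FPKM in DKO-labelled, 35.3 and 40.0 in denervated WT and 236 and 183 in innervated WT libraries. Its WT change was -2.38 ± 0.40 (edgeR adjusted p = 0.00971). The lowest levels were those of Lep (6: 29010220 to 29023876), which encodes the satiety hormone leptin, at 0.396 and 0.235 FPKM in DKO-labelled, 0.159 and 0.364 in denervated WT and 1.76 and 0.892 in innervated WT libraries. They rested on 64 and 36 fragments in DKO-labelled, 36 and 53 in denervated WT and 223 and 85 in innervated WT libraries. Lep changed by -2.31 ± 0.56 (edgeR adjusted p = 0.0267), which missed the threshold in limma after quantile normalization (adjusted p = 0.0537).

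Fabp4 (3: 10204342 to 10208576), a fatty acid carrier of fat cells that macrophages and capillary endothelium also make, had the highest level of the 10. It was at 319 and 237 FPKM in DKO-labelled, 261 and 289 in denervated WT and 714 and 768 in innervated WT libraries. Its change was the smallest of those called, -1.38 ± 0.19 (edgeR adjusted p = 0.00593), and its SE was the lowest of the 10. Pparg (6: 115311238 to 115440419), the nuclear receptor that binds fatty acids and directs fat cell differentiation, was at 2.99 and 1.75 FPKM in DKO-labelled, 1.72 and 3.18 in denervated WT and 3.74 and 3.64 in innervated WT libraries. All 4 denervated libraries lay below the innervated ones, but the WT difference, -0.52 ± 0.39, did not pass (edgeR adjusted p = 0.334). It was -1.04 between the first libraries of the groups and -0.13 between the second. Here and below, first and second follow accession order, as the titles give no replicate numbers.

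The perilipins of muscle fibres did not move together. Their promoters, from 250 bases before to 50 after the start of transcription, are shown with that of Plin1 because these family members separated in the libraries. They are from RefSeq on build GRCm38.p6, 5′ to 3′, and capitals mark AGGTCA on either strand (TGACCT on the other), the half-site of nuclear receptors such as the PPARs; for Plin5 the upstream of 2 listed starts is shown.
Plin1, chr7:79732727-79733026, minus strand: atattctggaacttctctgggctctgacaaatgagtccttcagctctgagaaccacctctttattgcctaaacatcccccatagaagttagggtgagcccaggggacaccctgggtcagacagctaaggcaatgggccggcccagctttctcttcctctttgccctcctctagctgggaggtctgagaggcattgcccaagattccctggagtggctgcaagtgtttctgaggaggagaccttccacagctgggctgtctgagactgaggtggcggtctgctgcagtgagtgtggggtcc
Plin2, chr4:86670010-86670309, minus strand: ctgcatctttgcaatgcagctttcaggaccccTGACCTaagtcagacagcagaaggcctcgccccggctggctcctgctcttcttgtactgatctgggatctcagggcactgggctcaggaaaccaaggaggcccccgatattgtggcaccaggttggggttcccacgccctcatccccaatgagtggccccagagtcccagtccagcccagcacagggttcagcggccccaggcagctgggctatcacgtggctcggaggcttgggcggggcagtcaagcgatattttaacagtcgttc
Plin4, chr17:56109733-56110032, minus strand: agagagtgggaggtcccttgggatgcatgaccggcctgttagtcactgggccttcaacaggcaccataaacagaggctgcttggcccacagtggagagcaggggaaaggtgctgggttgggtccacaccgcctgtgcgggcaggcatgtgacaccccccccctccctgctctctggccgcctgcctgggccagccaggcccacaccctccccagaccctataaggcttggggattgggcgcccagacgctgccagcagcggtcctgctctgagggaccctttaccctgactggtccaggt
Plin5, chr17:56117499-56117798, minus strand: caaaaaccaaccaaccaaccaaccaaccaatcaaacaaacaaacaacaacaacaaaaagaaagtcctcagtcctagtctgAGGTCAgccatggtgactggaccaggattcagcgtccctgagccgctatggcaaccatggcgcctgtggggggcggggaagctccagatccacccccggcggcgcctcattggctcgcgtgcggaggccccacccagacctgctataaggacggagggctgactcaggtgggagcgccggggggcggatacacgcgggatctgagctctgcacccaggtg
The half-site occurred once in the Plin2 window, from 218 bases before the start, and once in the Plin5 window, from 170 bases before it; the window of the other Plin5 start held it too, while those of Plin1 and Plin4 held none. Of the 9 genes matched by symbol, with 13 windows, 3 had it in at least 1 window (Pparg was the other). It was in 5 of the 13 windows, some of which overlap or belong to the same gene, and in 16.3% of all 32851 windows; a direct repeat of it spaced by 1 base was in 0 of the 13 and in 0.0396% of all. Fabp4 had no entry. A match is a description of these letters and not a bound site.

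Plin4 (17: 56219079 to 56249225), a perilipin of small droplets in fat cells and muscle, was the most abundant of the 4 in innervated muscle. It was at 7.51 and 3.74 FPKM in DKO-labelled, 3.79 and 23.3 in denervated WT and 87.4 and 104 in innervated WT libraries. Denervated WT replicate 2 stood above the other denervated libraries but still below both innervated ones. The WT change was -2.71 ± 0.80 (edgeR adjusted p = 0.0475), and -4.55 ± 0.49 without that library (adjusted p = 0.00394). Its call was lost with library totals as the only scaling, when the DKO-labelled libraries were left out (adjusted p = 0.0683), and without DKO-labelled replicate 1 or 2 (adjusted p = 0.0673 and 0.0679).

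Plin5 (17: 56251023 to 56256971), which ties droplets to mitochondria in oxidative tissues, lies next to Plin4, its listed locus starting 1798 bases beyond the end of that of Plin4. It was at 1.47 and 0.743 FPKM in DKO-labelled, 0.802 and 17.3 in denervated WT and 41.8 and 33.4 in innervated WT libraries. Denervated WT replicate 2 was nearer on the log2 scale to both innervated libraries than to any other denervated one. The change in WT muscle was -1.93 ± 1.12 (edgeR adjusted p = 0.230), and -5.43 ± 0.46 without that library (adjusted p = 0.00221). Between the first libraries of the WT groups the difference was -5.59, and between the second -0.81.

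Plin2 (4: 86302468 to 86315963), the perilipin that most cell types use and that protects droplets from lipases, went the other way in a single library. It was at 44.2 and 30.2 FPKM in DKO-labelled, 26.7 and 260 in denervated WT and 30.4 and 25.4 in innervated WT libraries. Apart from denervated WT replicate 2, the libraries lay within 25.4 to 44.2 FPKM. The WT difference was 2.44 ± 0.91 (edgeR adjusted p = 0.0873); it was 0.01 ± 0.25 without denervated WT replicate 2 (adjusted p = 0.992) and 3.29 ± 0.25 without replicate 1 (adjusted p = 0.00101), so the value rests on which denervated library is kept.

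Taking the 4 perilipins together, whose FPKM are per length and so can be set side by side, Plin2 made up 80.1% and 85.6% of their summed FPKM in DKO-labelled, 82.9% and 86.3% in denervated WT and 18.2% and 15.0% in innervated WT libraries. Plin2 thus held the largest share in all 4 denervated libraries. The sum itself was 55.2 and 35.2 FPKM in DKO-labelled, 32.3 and 301 in denervated WT and 167 and 169 in innervated WT libraries. Plin4 held 13.6% and 10.6% of the sum in DKO-labelled, 11.7% and 7.72% in denervated WT and 52.3% and 61.9% in innervated WT libraries. The smaller shares differed among the denervated libraries. Plin5 held 2.66% and 2.11% in DKO-labelled, 2.48% and 5.73% in denervated WT and 25% and 19.8% in innervated WT libraries. Plin1 held 3.62% and 1.68%, 2.90% and 0.231%, and 4.45% and 3.27% in the same groups. Groups of 2 allow no permutation test that could pass, so these shares are given as a description.

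**Figure D2:**
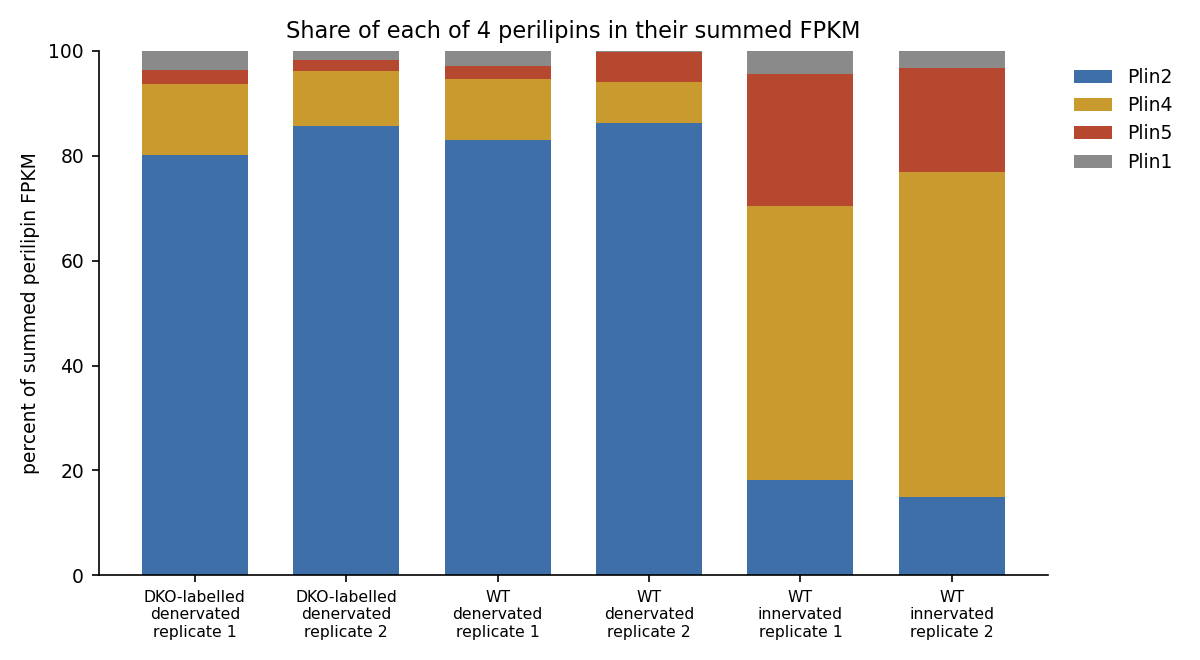
Share of Plin1, Plin2, Plin4 and Plin5 in their summed FPKM, in percent, for each library. Plin2 takes 80.1% to 86.3% in the 4 denervated libraries and 15.0% to 18.2% in the innervated ones, where Plin4 and Plin5 take most.

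Among the 10 genes, these perilipins differed most between the denervated WT libraries. In denervated WT, replicate 2 minus replicate 1 was 4.44 for Plin5, 3.30 for Plin2 and 2.63 for Plin4 on the log2 CPM scale (counts scaled by library size and TMM), and 0.0163%, 0.122% and 0.416% of tested genes were at least as far apart. Lep was 1.20 higher in replicate 2, so that 4 of the 10 were at least 2-fold higher there, against 2.99% of all genes, while Plin1, Cidec, Fabp4, Adipoq and Cfd differed by -0.42 to 0.25. In the DKO-labelled pair replicate 2 minus replicate 1 was -1.74 to -0.41 on that scale, below 0 for all 10, and Plin1, Cidec and Cfd were at least 2-fold lower, against 3.68% of all genes (0.817% were at least 2-fold higher).

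**Figure D3:**
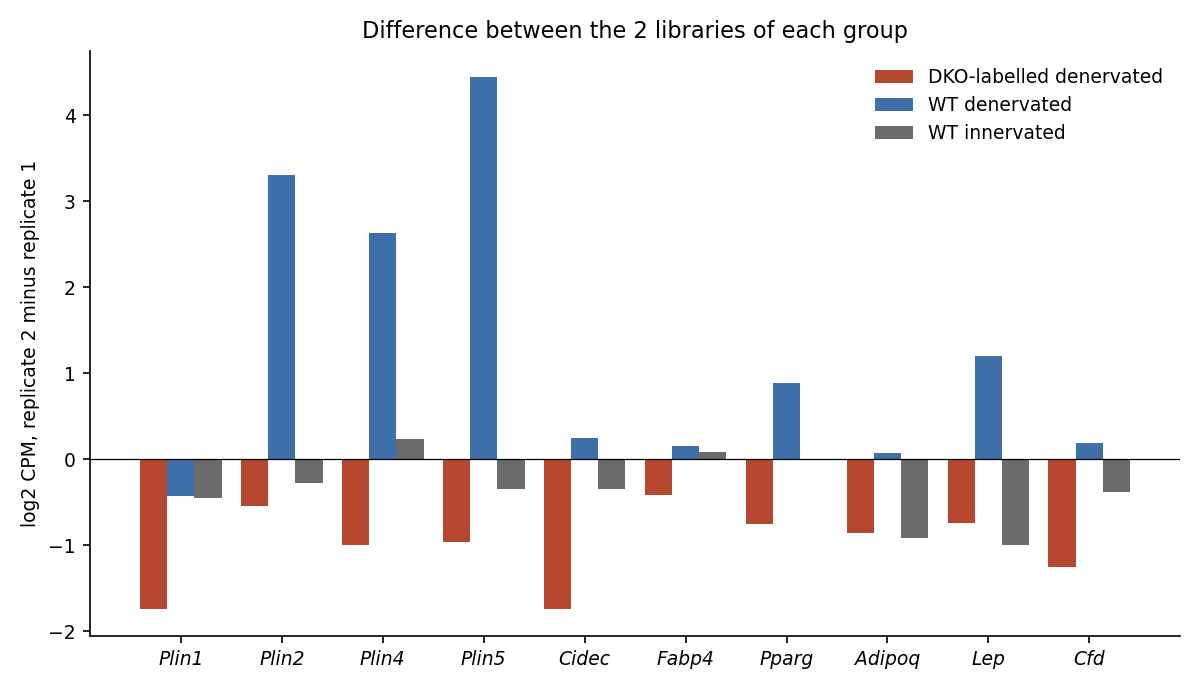
Replicate 2 minus replicate 1 on the log2 CPM scale for each gene, in DKO-labelled denervated, WT denervated and WT innervated muscle. Plin2, Plin4 and Plin5 stand 2.63 to 4.44 higher in denervated WT replicate 2, while all 10 genes are lower in DKO-labelled replicate 2.

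Other genes were also apart between the denervated WT libraries. Of 11 tested markers of fibro-adipogenic progenitors, the connective tissue cells from which fat in muscle arises, 7 were at least 2-fold lower in replicate 2 (7.37% of all genes), with a list median of -1.34. Of 15 tested genes of lipid droplet proteins and lipases, Pnpla2 and Fitm2 were at least 2-fold higher there and 0 lower. Of 18 PPAR-responsive fatty acid genes Acot1, Acot2 and Mlycd were higher and 0 lower, and 2.99% of all genes were higher. These 5 were named after their values were seen. Of 19 other tested markers of fat cells 0 were 2-fold higher in replicate 2 and 2 lower. Of 14 macrophage markers 0 were higher and 3 lower. Pnpla2, the main triglyceride lipase of fat and muscle, was at 53.6 FPKM in replicate 1 and 160 in replicate 2. The part of these differences in the values of Plin2, Plin4 and Plin5 was not tested. In the DKO-labelled pair, 5 of 19 other tested markers of fat cells and 6 of 14 macrophage markers were at least 2-fold lower in replicate 2. The share over all genes was 3.68%. None of these markers was 2-fold higher (0.817% of all genes), and the list medians were -0.71 and -0.94, against 0.00 over all genes. Of 11 receptor and signalling genes of adiponectin and leptin 0 were 2-fold apart in that pair, with a median of -0.04.

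The comparison named in the series design sets denervated DKO-labelled against denervated WT muscle, to find genes that Dach2 and Hdac9 regulate. Of the 10 genes 0 passed in it (edgeR; 2 at an unadjusted p under 0.05, Plin5 and Cidec; 0 with DESeq2 and with limma), and 5 of all 12247 genes did, 0.0408% (0.0245% higher and 0.0163% lower). The 3 muscle perilipins had the lowest values, Plin5 at -2.99 ± 1.21, Plin2 at -1.95 ± 0.89 and Plin4 at -1.23 ± 0.77 (edgeR adjusted p = 0.796, 0.854 and 0.964). Paired in accession order, all 3 changed sign between the first and second libraries of the groups. The difference was 0.91 and -4.49 for Plin5, 0.73 and -3.10 for Plin2, and 1.03 and -2.60 for Plin4. Without denervated WT replicate 2 they were at 0.51, 0.49 and 0.61 (edgeR adjusted p = 0.810, 0.708 and 0.773), and without denervated WT replicate 1 at -3.92, -2.80 and -2.01, of which Plin5 and Plin2 passed (adjusted p = 0.0281 for each) and Plin4 did not (0.0681).

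Cidec and Adipoq were the only 2 of the 10 whose DKO-labelled and denervated WT libraries did not overlap, both with DKO-labelled higher, against 14.2% of all genes (14.4% were apart with DKO-labelled lower). Cidec differed by 1.30 ± 0.53 (edgeR adjusted p = 0.798), by 2.05 between the first libraries and 0.06 between the second. Adipoq differed by 0.60 ± 0.39 (adjusted p = 0.968), by 1.0 and 0.07 between the first and the second libraries. Plin1 was at 0.73 ± 0.55, Lep at 0.29 ± 0.56, Cfd at 0.17 ± 0.38, Fabp4 at 0.01 ± 0.18 and Pparg at -0.06 ± 0.38 (edgeR adjusted p = 0.968 to 0.999). For Plin1, Lep, Cfd and Pparg the first libraries gave 1.16, 1.31, 0.76 and 0.78, and the second -0.16, -0.63, -0.68 and -0.86. These pairs follow accession order only, and another pairing would give other values.

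**Figure D4:**
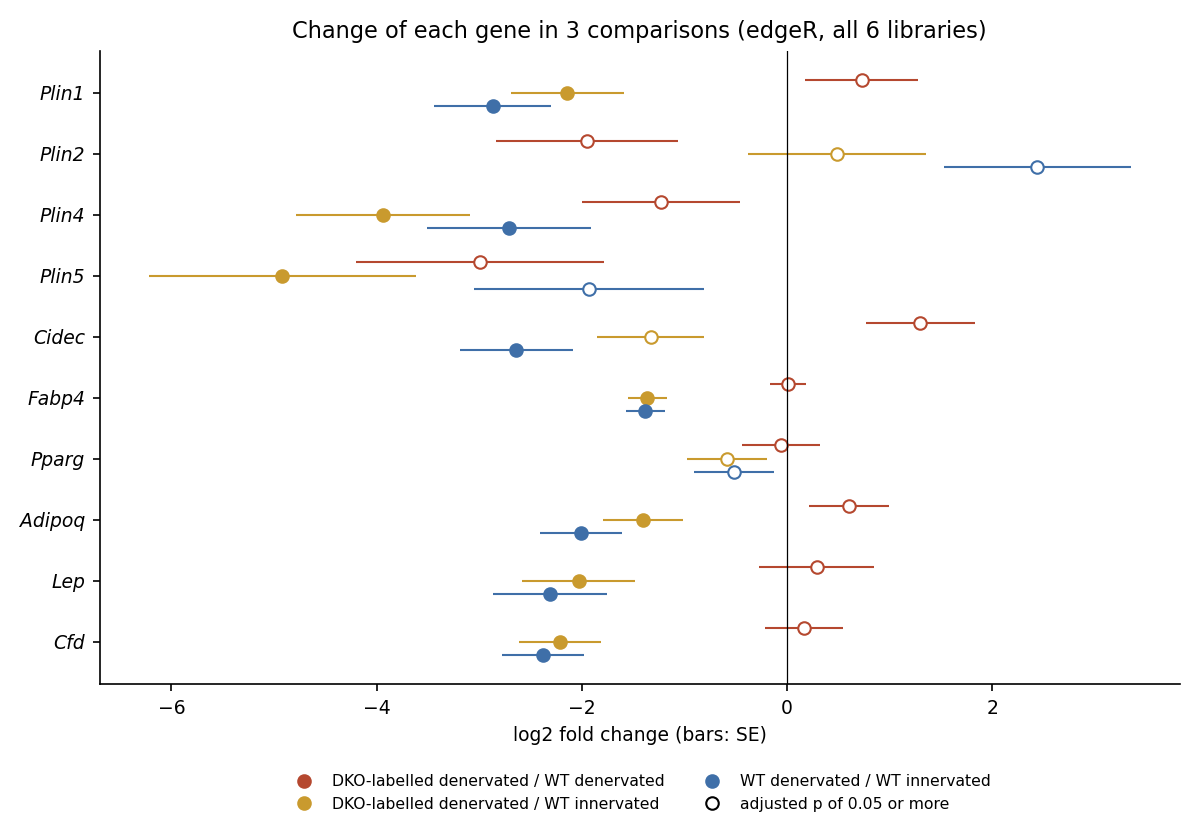
Log2 fold change of each gene in the 3 comparisons, with bars for the SE and open points for an adjusted p of 0.05 or more (edgeR). In DKO-labelled against WT denervated muscle all points are open, between -2.99 for Plin5 and 1.30 for Cidec.

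Set against innervated WT muscle, which the first comparison also used, the denervated DKO-labelled libraries had lower levels of most of the 10 genes. Here 7 of the 10 were called lower and 0 higher (16.2% and 15.2% of all genes, 31.4% in all). Lep, which passed the filter only through innervated muscle, is again among the 7, and these shares too are a description. DKO-labelled libraries lay below innervated ones for 9 (38.1% of all genes) and, in library-scaled counts, above them for Plin2 (38.3% of all genes). Plin5 changed by -4.92 ± 1.30, Plin4 by -3.94 ± 0.85, Cfd by -2.21 ± 0.40 and Plin1 by -2.14 ± 0.55 (edgeR adjusted p = 0.0321, 0.0169, 0.00990 and 0.0290). Lep, Adipoq and Fabp4 changed by -2.03 ± 0.55, -1.40 ± 0.39 and -1.36 ± 0.19 (adjusted p = 0.0352, 0.0367 and 0.00462). Cidec, at -1.33 ± 0.52, did not pass (adjusted p = 0.0935), but it did with DESeq2 (0.0296), with no filter (0.0489) and in limma with a pseudocount of 1 or quantile normalization (0.0483 and 0.0469), and at -2.45 without DKO-labelled replicate 1 (0.0170). Pparg at -0.58 ± 0.39 (edgeR adjusted p = 0.287) and Plin2 at 0.49 ± 0.87 (0.693) did not pass. Without innervated WT replicate 1 only Fabp4 passed, without innervated WT replicate 2 none did, without DKO-labelled replicate 1 5 of the 10 did, Cidec among them, and without DKO-labelled replicate 2 2 did, while all 7 stayed below 0.

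Other markers of fat cells were lower in denervated WT muscle as well. Of 24 listed, 19 were tested. Of these, 11 fell, 0 rose and 8 did not pass, against 14.3% lower and 14.4% higher over all genes. Their median was -1.94. Of the 11, Lgals12, Mrap, Slc36a2, Slc7a10 and Tusc5 had a mean under 0.5 FPKM in denervated WT muscle and passed the filter through groups where they were higher, so the count and the median favour genes that differ. With the minimum mean FPKM raised to 2, 5 of 12 were called and the median was -0.87. The largest decreases were those of the melanocortin receptor accessory protein Mrap (-3.07), the gluconeogenic and glyceroneogenic enzyme Pck1 (-2.92), the lectin Lgals12 of fat cell droplets (-2.65) and Nnat (-2.62), with edgeR adjusted p of 0.0238, 0.0180, 0.0169 and 0.0197; Mrap rested on 20 and 5 fragments in denervated WT and 89 and 40 in innervated WT libraries. The list had 5 called genes without denervated WT replicate 2, 0 without innervated WT replicate 1 and 1 without innervated WT replicate 2. The summed level of the 24 was 711 to 1206 FPKM in DKO-labelled, 940 to 1761 in denervated WT and 1887 to 2488 in innervated WT libraries, of which slow fibres' own Car3 made up most; without Car3 it was 138 to 184, 143 to 163 and 189 to 216 FPKM. None of the list's genes was at 0 in every library. Against denervated WT, 0 of the 19 differed in DKO-labelled muscle (edgeR), with a median of 0.22.

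Of droplet proteins and lipases outside the 10 genes, 15 were tested. In denervated WT muscle 5 fell and 1, Aup1, rose, against 14.3% and 14.4% of all genes. The list median was -0.29. Without innervated WT replicate 1 the called genes numbered 2, and without replicate 2 1. G0s2, the inhibitor of the lipase Pnpla2, was at 9.04 and 4.02 FPKM in DKO-labelled, 4.97 and 3.61 in denervated WT and 68.7 and 53.7 in innervated WT libraries, a WT change of -3.73 (edgeR adjusted p = 0.00401) that no alternative ended. The hormone-sensitive lipase Lipe changed by -2.08, the remaining perilipin, Plin3, by -1.37 and Fitm1, which helps droplets form at the endoplasmic reticulum, by -1.31 (adjusted p = 0.00914, 0.0199 and 0.00781). In triglyceride and fatty acid synthesis 4 of 18 genes fell and 2 rose, against 14.3% and 14.4% of all genes. Dgat2, an enzyme of the last step of triglyceride synthesis, changed by -1.94 (edgeR adjusted p = 0.00615). Dgat1, of the same step, was at 0.54 and did not pass (adjusted p = 0.155). The acetyl-CoA synthetase Acss2 changed by -1.78 and Gpam, which starts glycerolipid synthesis, by -1.77 (adjusted p = 0.0257 and 0.0140). The phosphatidate phosphatases differed in direction. Lpin2 changed by 2.67 and Lpin3 by 1.31, but Lpin1 by -1.57 (edgeR adjusted p = 0.00448, 0.0135 and 0.04). In innervated WT muscle Lpin1 was the most abundant of them, at a mean of 45.9 FPKM, against 1.19 for Lpin2 and 2.1 for Lpin3.

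PPAR-responsive fatty acid genes fell at 11 of 18 and rose at 0 in denervated WT muscle, against 14.3% and 14.4% of all genes. Their median was -1.29. Ucp3, the lipase Lpl, the muscle fatty acid carrier Fabp3 and the dehydrogenase Acadm changed by -3.25, -3.16, -3.0 and -2.44 (edgeR adjusted p = 0.0244, 0.00221, 0.00265 and 0.00221). Of 23 transcription factors of fat cell differentiation and partners of PPARG, 9 fell and 1, Klf5, rose, against 14.3% and 14.4% of all genes. The median was -0.59. The co-activator Ppargc1a, Ppara, Klf4 and Zfp423 changed by -1.95, -1.89, -1.82 and -1.78 (edgeR adjusted p = 0.0336, 0.00925, 0.0135 and 0.0181). Receptors and signalling genes of adiponectin and leptin, 11 tested, showed 2 higher, the adiponectin-binding cadherin Cdh13 (0.98, edgeR adjusted p = 0.0484) and the AMPK subunit Prkaa1 (0.63, adjusted p = 0.0298), and 2 lower, Prkaa2 (-1.29, adjusted p = 0.0136) and Jak2 (-1.09, adjusted p = 0.0204). These shares are near the 14.4% higher and 14.3% lower of all genes. With library totals as the only scaling 5 were higher and 2 lower. With the DKO-labelled libraries left out only Prkaa2 and Jak2 passed. In DKO-labelled against denervated WT muscle, 0 genes of these lists passed (edgeR). Without innervated WT replicate 1 and without replicate 2 the called genes numbered 4 and 4 in the PPAR-responsive list, 2 and 0 among the transcription factors, 2 and 0 in synthesis and 0 and 0 among the receptors.

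**Figure D5:**
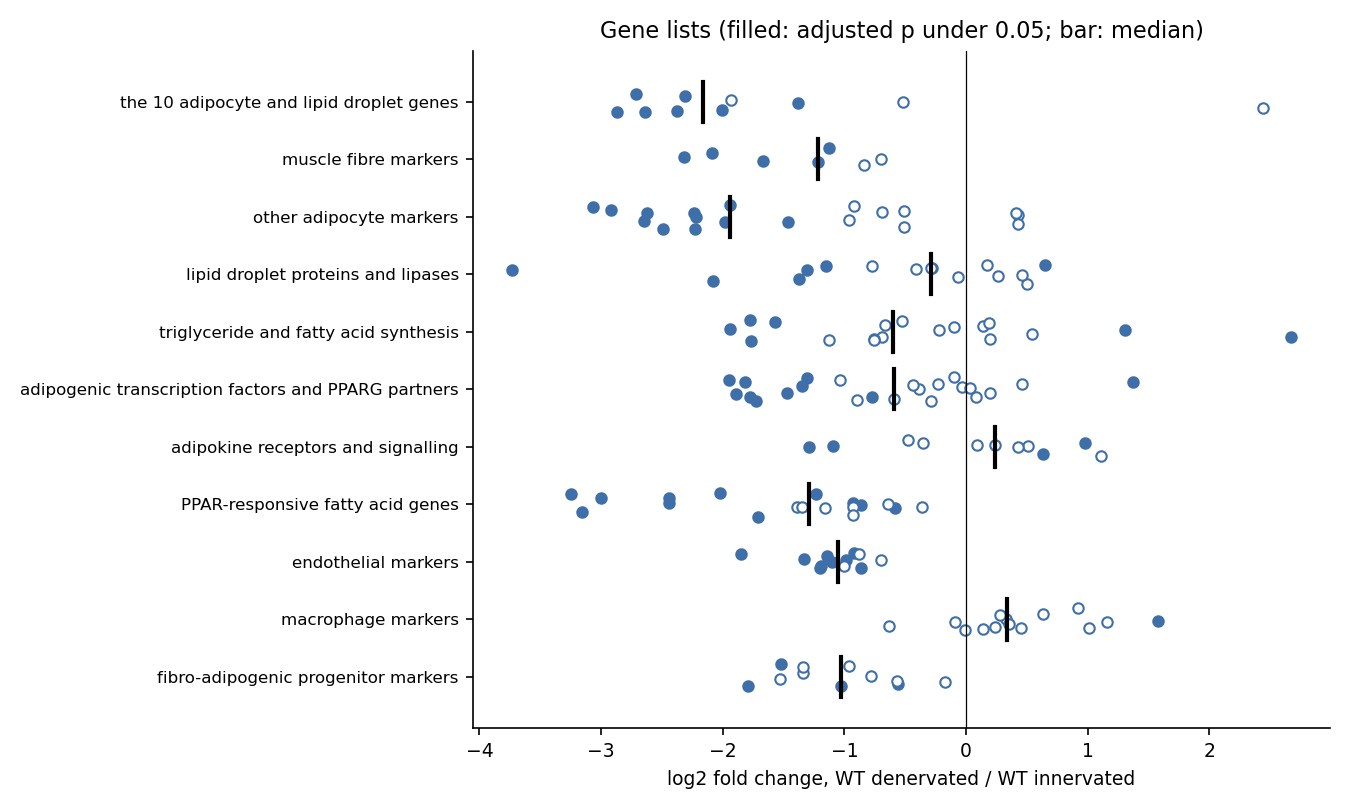
Log2 fold change, WT denervated over WT innervated, of the 10 genes and of each tested gene of 10 lists, filled where the adjusted p is under 0.05, with a bar at the median. The medians run from -2.16 for the 10 genes and -1.94 for the other fat cell markers to 0.34 for macrophage markers.

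Markers of cell types that share Fabp4, Pparg or Plin2 with fat cells were counted too. Of all genes, 14.3% were called lower and 14.4% higher in denervated WT muscle. Endothelial markers fell at 9 of 12 in denervated WT muscle (median -1.05), with the receptor Kdr at -1.85, Cldn5 at -1.33, Egfl7 at -1.20 and Esam at -1.19 (edgeR adjusted p = 0.00408, 0.0176, 0.00737 and 0.0246), and their summed level was 76.9 to 118 FPKM in DKO-labelled, 98.3 to 107 in denervated WT and 211 to 251 in innervated WT libraries. Macrophage markers had 1 of 14 higher, a share below that of all genes, and 0 lower. The gene was Cd68, at 1.58 (edgeR adjusted p = 0.0111). The list had a median of 0.34 and a summed level of 220 to 373, 282 to 374 and 212 to 315 FPKM in the same order of groups. Fibro-adipogenic progenitor markers fell at 4 of 11 (median -1.03), Dpp4 at -1.79, Dpt at -1.52, Gsn at -1.03 and Dcn at -0.56 (adjusted p = 0.0319, 0.0460, 0.0126 and 0.0469), with a summed level of 648 to 741, 665 to 962 and 1490 to 1664 FPKM. Without denervated WT replicate 1 that count was 10, without replicate 2 or either DKO-labelled library it was 2, and without either innervated library it was 0. The endothelial count was 4 without denervated WT replicate 2, 3 without innervated WT replicate 1 and 0 without innervated WT replicate 2, and without that last library Cd68 did not pass. No marker of these 3 lists was at 0 in any library, and their part in the values of the 10 genes was not tested.

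The genes whose profile over the 6 libraries was most like that of Adipoq, by root mean square difference of centred log2 CPM, were Pdk4 (0.159), Ifi27l2a (0.189), Aqp7 (0.230), Glb1l2 (0.230) and Aoc3 (0.248), against a range of 2.41 for Adipoq itself. Aqp7 is a glycerol channel of fat cells, Aoc3 an amine oxidase on their surface and Pdk4 a kinase that restrains glucose oxidation in muscle. Aqp7 was at 1.79 and 0.925 FPKM in DKO-labelled, 1.28 and 0.890 in denervated WT and 5.10 and 3.49 in innervated WT libraries. Among the 10 genes the closest profiles were those of Plin1 and Cfd (0.309), Plin1 and Cidec (0.381) and Adipoq and Lep (0.387). No gene came as near to Plin2, whose own range was wider, 3.44: Lamc3, Snord34, Slc19a1, Fkbp5 and Hmga1 were at 0.524 to 0.592. Each, like Plin2, was highest in denervated WT replicate 2. Snord34 was at 0 FPKM in both innervated WT libraries, where Plin2 was at 30.4 and 25.4. The glucocorticoid-responsive Fkbp5 was at 10.7 and 9.14 FPKM in DKO-labelled, 5.87 and 27 in denervated WT and 5.89 and 9.40 in innervated WT libraries. All 6 points share their libraries, so these likenesses are descriptions.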

How the data were processed

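Estimated fragment counts, FPKM and a signal of externally scaled fragments were deposited for each library, per the file headers. The scaled signal was the raw fragments times 1 factor per library (0.6643 to 1.5641), to a relative deviation of at most 8.58e-06, and served only for that check. The FPKM made by the authors divide fragments by transcript length and a library factor. Per the submitters' processing notes the build was mm9, and the tools were Cuffdiff 2.0.2, TopHat2 2.0.3, Bowtie2 2.0.0.7, Trim Galore 0.2.1 and CASAVA 1.8.2, with no role stated for each. How strand, overlapping genes and antisense genes were counted is not given in the sources. Of the estimated counts deposited, 88.4% to 89.0% were whole within 1e-06. Each table lists every entry 3 times with the same values (65415 lines, 21805 entries), of which 1 copy was kept, and entries of 1 symbol were summed.

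Counts were rounded and tested with edgeR 4.0.16 (R 4.3.3), TMM scaling, group means of all 6 libraries and a minimum mean FPKM of 0.5, with 3 residual degrees of freedom and a common coefficient of biological variation of 0.222. A run of the fit on simulated counts used that 1 coefficient for every gene and no outlying library. It therefore does not bear on results that rest on denervated WT replicate 2. Alternatives used DESeq2 1.42.0, limma 3.58.1 on log2(FPKM + 0.5) or log2(FPKM + 1), other scaling and filters, and left out each library. Replicates differed by more than counting noise in every group (chi-square per degree of freedom: DKO-labelled 77.5, denervated WT 200, innervated WT 37.7). The 10 genes and the lists were chosen with earlier results of these data known. Named list genes were up to 4 called in denervated against innervated WT of largest change, or up to 2 of smallest p. Dgat1, Lpin1 and Lpin3 were named beside genes of the same step. The genes most like Adipoq and Plin2 were the 5 nearest, passing over unnamed transcripts. Groups and the order of replicates came from sample titles and accession order.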

Additional observations from a re-analysis of the deposited data

How the results depend on the processing

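The 7 decreases of denervated against innervated WT kept their direction in every alternative that tested them (Lep was not tested with the minimum mean FPKM raised to 2), and 6 to 8 of the genes were called in all but those that leave out an innervated library. With a library left out the count of called genes among the 10 ran from 0 to 8 in denervated against innervated WT, from 0 to 2 in DKO-labelled against denervated WT and from 0 to 7 in DKO-labelled against innervated WT. Over all genes the same fits gave 202 to 5357, 0 to 119 and 661 to 5517 calls. The counts differed by which library was left out, and the cause was not tested.

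In DKO-labelled against denervated WT, where 5 genes in all were called, the count was 10 with DESeq2-style size factors, 3 with library totals, 182 with DESeq2, 60 with no filter, 2 with the minimum mean FPKM raised to 2, 35, 34 and 30 in limma with a pseudocount of 0.5, of 1 and with quantile normalization, and 0 in the 4 libraries alone. Near 0 in that comparison, Fabp4 was -0.01 with either DESeq2 setting, Pparg 0.01 with library totals and Cfd -0.02 in limma with either pseudocount. Leaving out a library turned the sign of Plin1 (range -0.39 to 1.35), Plin2 (-2.80 to 0.49), Plin4 (-2.01 to 0.61), Plin5 (-3.92 to 0.51), Fabp4 (-0.21 to 0.20), Pparg (-0.48 to 0.45), Lep (-0.21 to 0.98) and Cfd (-0.59 to 0.66). With no filter Plin2 passed in denervated against innervated WT, at 2.52 (adjusted p = 0.0265). With library totals as the only scaling the median of all genes was 0.27 there and 0.33 in DKO-labelled against innervated WT, and no sign of the 10 genes turned in either.

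The titles give no replicate numbers, so a block had to follow the 2 runs of sample numbers (14043 to 14045 and 14049 to 14051), which the labels do not call a batch; replicate differences correlated across genes at 0.14 to 0.43. As a replicate block, these runs left 7, 0 and 8 of the 10 genes called in the 3 comparisons, the eighth being Cidec in DKO-labelled against innervated WT. They moved the called progenitor markers to 8 and macrophage markers to 3 in denervated against innervated WT; no other list there moved by over 1.5 times. Depth limits Lep and Plin1 most, at 36 to 223 and 52 to 494 fragments per library.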

Other observations

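Ucp1, the uncoupling protein of brown and beige fat cells, lay below the filter and was picked after its values were seen. It had 0 and 0 fragments in DKO-labelled, 48 and 23 in denervated WT and 2 and 0 in innervated WT libraries. Taking 3 fragments in the DKO-labelled libraries together as the least detectable, it was at least 19.4-fold lower in DKO-labelled than in denervated WT muscle. In the edgeR fit with no filter, over 18234 genes, its adjusted p was 0.0473 in that comparison and 0.00971 in denervated against innervated WT, higher in both denervated WT libraries than in the other 4. Cidea, also picked after its values were seen, which brown fat cells share with other tissues, was at 13.2 and 7.23 FPKM in DKO-labelled, 9.32 and 7.56 in denervated WT and 7.7 and 5.66 in innervated WT libraries and did not pass in denervated against innervated WT (edgeR adjusted p = 0.359).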
